A study of Homo sapiens with 9 samples.

Results

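The homeobox genes MEIS1, MEIS2 and PBX3 and the orphan nuclear receptor genes NR2F1 and NR2F2 were followed through the differentiation of NCCIT cells into embryoid bodies. NCCIT is a human embryonal carcinoma line, and embryoid bodies are the aggregates it forms when it cannot attach. Of these 5 genes, 4 had a transcript cluster (a probe group for the exons of a transcript) that the platform annotation gave to that gene alone, out of 18417 genes so named. Each of the 4 had 1 such cluster, namely 8042356 for MEIS1, 7987385 for MEIS2, 8157890 for PBX3 and 8106923 for NR2F1. NR2F2 had no such cluster and was not analysed here.

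The series was designed to profile transcription factors that ethanol affects in embryoid bodies. It held 9 arrays, all of NCCIT, with 1 array per condition and nothing in the labels to say whether they came from separate cultures. A single array came from undifferentiated cells. For embryoid bodies, day 7 and day 21 each had an untreated array and arrays with ethanol, with FA and with the 2 together. The treatment protocol gives ethanol at 50 mM and describes 7 days of culture, and it is shared by the arrays labelled 21 days. No label says what FA stands for or how much was added. All arrays thus share a single tumour line, kept in medium with serum.

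MEIS and PBX proteins belong to the TALE class of homeodomain proteins. They bind DNA together and serve as partners of HOX proteins, which raises the affinity and specificity of HOX binding, and in the embryo they are best known from the hindbrain, limbs, eye and heart. NR2F1 and NR2F2 encode COUP-TFI and COUP-TFII, nuclear receptors that act largely as repressors, compete with retinoic acid receptors for shared sites and pattern the forebrain, neural crest, atria and veins. Expression of MEIS and COUP-TF genes is known to respond to retinoic acid in carcinoma and stem cells.

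Values below are log2 expression after RMA, in which a difference of 1 is a 2-fold difference. Levels of different genes come from different probes and were not compared with each other. Fitted effects are from limma over all 9 arrays, in which ethanol, FA, day and the undifferentiated state each had a term. They are given with the standard error (SE) of the fit, and adjusted p-values follow Benjamini and Hochberg over all 12254 genes that entered the test and were read at 0.05. Because separate cultures are not named, a p-value here reflects only how these arrays scatter, and that scatter may be technical. All 4 measured members passed the filter on dim genes, which kept a gene if any array exceeded the median of all values, 7.71. MEIS1 passed only through its day 21 arrays.

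The 9 arrays had medians from 7.67 to 7.76, and no array was a copy of another. Within a day the mean correlation of an array with the other 3 over all clusters was 0.990 for day 7 with ethanol, 0.994 to 0.995 for the other day 7 arrays and 0.996 for the day 21 arrays. Of 11 pluripotency symbols listed to check the cells, 10 had a cluster and all 10 exceeded the median of all values. Their mean level was 11.54 in undifferentiated cells, 11.27 to 11.38 at day 7 and 9.91 to 10.23 at day 21. From day 7 to day 21, 9 of the 10 were called lower, where 22.6% of all genes were. The remaining gene, LIN28B, was called higher (0.66, adjusted p = 1.4e-04 in limma).

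The 2 factor genes with the widest gap between days are shown with the bases before their start site, so that the sequence at the start of the late genes can be read beside their values. The windows, at the first listed start of each gene, span the 250 bases before the start, on the plus strand of GRCh38.p14, from RefSeq, at chr2:66434875-66435124 and chr5:93582972-93583221. Capitals mark matches to the motifs named below.
MEIS1: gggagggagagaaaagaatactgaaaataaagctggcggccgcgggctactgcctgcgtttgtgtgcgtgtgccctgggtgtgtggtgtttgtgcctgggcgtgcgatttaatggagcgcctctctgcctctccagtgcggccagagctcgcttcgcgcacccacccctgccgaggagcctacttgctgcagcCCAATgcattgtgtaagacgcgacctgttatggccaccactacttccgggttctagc
NR2F1: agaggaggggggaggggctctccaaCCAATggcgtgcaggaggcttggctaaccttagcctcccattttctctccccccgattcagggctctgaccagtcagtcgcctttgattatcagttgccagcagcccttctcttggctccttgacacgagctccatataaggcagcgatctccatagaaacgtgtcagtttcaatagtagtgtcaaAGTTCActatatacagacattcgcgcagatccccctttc

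In the MEIS1 window the capitals mark a CCAAT box, 57 to 53 bases before the start, and 32.0% of 35116 such windows of all genes held CCAAT on either strand. In the NR2F1 window a CCAAT box lay 225 to 221 bases before the start, and the nuclear receptor hexamer AGTTCA lay 39 to 34 bases before it. AGTTCA was in 8.80% of all windows. Neither window held AGGTCA (12.1% of all windows), the retinoic acid direct repeat spaced by 5 (0.00285%) or its variant (0.0313%), the COUP-TF direct repeat spaced by 1 (0.0171%), the MEIS core TGACAG (13%), the PBX and MEIS composite (0.134%), the HOX and PBX composite TGATNNAT (6.47%) or TATAAA (10.7%). Both strands were searched. AGGTCA is part of both direct repeats, AGTTCA of the variant, and TGACAG of the PBX and MEIS composite. A second listed start of NR2F1 had AGTTCA 148 to 143 bases before it and TATAAA on the opposite strand 111 to 106 bases before it. GC content was 59.6% in the MEIS1 window and 52.4% in the NR2F1 window, against a median of 58.0% over all windows, with 16 and 8 CpG dinucleotides against a median of 11.

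For the other 2 measured genes a short stretch around a match to a TALE motif is shown, with the match in capitals. For PBX3 it is the MEIS core on the opposite strand, 20 to 15 bases before its start on chromosome 9, and for MEIS2 it is the HOX and PBX composite, 64 to 57 bases before the second of its listed starts on chromosome 15, where it overlaps a CCAAT box on the opposite strand.
PBX3: tttgccgagCTGTCAccctcccgc
MEIS2: ttcgcctttTGATTTATtggatcctc

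The window before the first listed start of MEIS2 held none of the 10 motifs. These matches describe letters in a window, and no array measured binding there.

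MEIS1, a TALE factor best known from hindbrain, eye and blood stem cells, was low until day 7 and high at day 21. Its level was 6.09 in undifferentiated cells. At day 7 it was 6.25 untreated, 6.53 with ethanol, 6.06 with FA and 6.80 with both. At day 21 it was 11.27 untreated, 11.17 with ethanol, 11.30 with FA and 11.13 with both. The lowest day 21 array stood 4.33 above the highest day 7 array, so the days did not overlap, and at day 7 every array was below the median of all values. The fitted rise from day 7 to day 21 was 4.81 ± 0.14 (SE, 28.0-fold, adjusted p = 1.6e-07), the fourth largest difference in size of the genes tested. Of the 4 members it had the largest rise, and 0.0898% of all genes were called with a rise of at least 16-fold, MEIS1 among them.

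MEIS2, its close paralogue and a factor for palate, heart and cranial neural crest, rose in 2 steps. Its level was 7.89 in undifferentiated cells. At day 7 it was 9.14 untreated, 9.48 with ethanol, 9.16 with FA and 9.69 with both. At day 21 it was 12.21 untreated, 12.05 with ethanol, 12.10 with FA and 12.04 with both. All day 7 arrays lay above the undifferentiated array, as they also did for NR2F1 and PBX3. The share of all genes with that order was not counted, so nothing is read from it. All day 21 arrays of MEIS2 lay 2.36 or more above the highest day 7 array. The fitted difference was 1.38 ± 0.20 (SE, 2.61-fold, adjusted p = 0.0061) from undifferentiated cells to day 7 and 2.73 ± 0.11 (SE, 6.66-fold, adjusted p = 1.1e-06) from day 7 to day 21.

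NR2F1, which patterns the neocortex and optic nerve, rose mainly between day 7 and day 21. All of its day 7 arrays lay above the median of all values. Its level was 7.52 in undifferentiated cells. At day 7 it was 7.84 untreated, 8.05 with ethanol, 7.87 with FA and 7.73 with both. At day 21 it was 11.29 untreated, 11.26 with ethanol, 11.39 with FA and 11.32 with both. The lowest day 21 array was 3.21 above the highest day 7 array, so the days did not overlap. The fitted rise from day 7 to day 21 was 3.44 ± 0.07 (SE, 10.9-fold, adjusted p = 5.3e-08).

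PBX3, a partner of both MEIS and HOX proteins, was bright on every array and moved little. Its level was 10.80 in undifferentiated cells. At day 7 it was 10.83 untreated, 10.92 with ethanol, 10.88 with FA and 11.06 with both. At day 21 it was 11.27 untreated, 11.19 with ethanol, 11.09 with FA and 11.16 with both. The days touched closely, with the lowest day 21 array 0.027 above the highest day 7 array. The fitted rise from day 7 to day 21 was 0.25 ± 0.07 (SE, 1.19-fold, adjusted p = 0.013), and it missed the threshold without the untreated day 7 array (adjusted p = 0.057) and without the day 7 array with FA (adjusted p = 0.052).

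**Figure D1:**
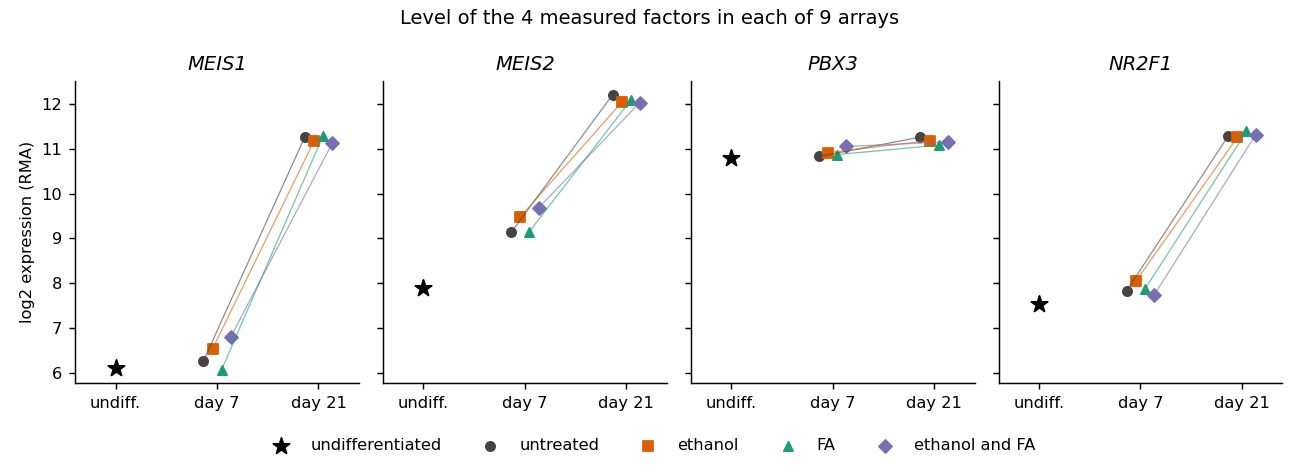
Each panel shows the log2 expression of a gene in the 9 arrays, with lines joining day 7 and day 21 arrays of the same treatment. MEIS1 and NR2F1 stay near their undifferentiated level of 6.09 and 7.52 at day 7 and reach 11.13 or more at day 21, MEIS2 rises in both steps, and PBX3 lies between 10.80 and 11.27 throughout.

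Between day 7 and day 21 all 4 of 4 tested members rose. MEIS1 passed the filter only through day 21, so its entry into this count depended on being high there. Of all genes tested, 26.3% rose, 22.6% fell and 48.9% changed in either direction, and the rise was 31.3% with each array centred on its median, where 3841 genes were higher and 2106 lower in place of 3224 and 2771. Size separates the members more than the call does, since 5.04% of all genes passed the test with a difference of at least 2-fold, which MEIS1, MEIS2 and NR2F1 reached and PBX3 did not. In 24.6% of genes, as in these 4, the day 21 arrays all lay above the day 7 arrays. RNA came from whole cultures, so a change in the number of cells that express a gene and a change of RNA per cell cannot be told apart.

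The rises of the paralogues MEIS1 and MEIS2 between the days were set side by side, with a test that could not pass 0.05 in this design. In the 4 pairs of arrays that share a treatment, the rise of MEIS1 exceeded that of MEIS2 by 1.94 to 2.29, with a mean of 2.07 ± 0.16 (SD, n = 4 pairs). The exact two-sided sign-flip test gave p = 0.12, the smallest p that 4 pairs allow, as it did for each of the 6 pairings of the 4 genes, so the difference is given as a description. MEIS1 started below the median of all values, where RMA compresses differences, and MEIS2 above it, and what part that had in the difference was not tested. The same comparison between NR2F1 and NR2F2 was not analysed here.

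From undifferentiated cells to untreated day 7, MEIS2 was the member that passed, 1 of 4, while 6.68% of all genes were higher (4.51% with each array centred on its median, with 553 higher and 2498 lower in place of 818 and 1702). MEIS1 differed by 0.22 ± 0.23 (SE, 95% interval -0.32 to 0.76, adjusted p = 0.57) and PBX3 by 0.10 ± 0.11 (SE, 95% interval -0.17 to 0.36, adjusted p = 0.61). NR2F1 differed by 0.37 ± 0.13 (SE, 95% interval 0.068 to 0.67, adjusted p = 0.083). NR2F1 passed without the day 7 array with ethanol (0.29, adjusted p = 0.028) and without the doubly treated day 7 array (0.37, adjusted p = 0.043). MEIS2 passed whichever array was left out, with adjusted p from 0.0034 to 0.038. These differences all rest on the same undifferentiated array.

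From undifferentiated cells to untreated day 21 all 4 members were called higher, against 16.6% of all genes (37.8% changed in either direction). In this count too, MEIS1 was tested only because its day 21 arrays passed the filter. The fitted differences were 5.03 ± 0.23 (SE) for MEIS1, 4.12 ± 0.20 for MEIS2, 3.81 ± 0.13 for NR2F1 and 0.35 ± 0.11 for PBX3. The adjusted p was 8.6e-06 for MEIS1, 9.8e-06 for MEIS2, 2.4e-06 for NR2F1 and 0.042 for PBX3. The PBX3 call was lost without the filter on dim genes (adjusted p = 0.058), with each array centred on its median (adjusted p = 0.073), and without either untreated embryoid body array (0.056 for day 7, 0.16 for day 21). It was also lost without the FA array of day 7 (adjusted p = 0.078) or of day 21 (0.052), the ethanol array of day 21 (0.070), or the array with both at day 21 (0.064). The mean of the 4 day 7 arrays was also set against the mean of all 4 day 21 arrays. By day 7 it had covered 35.1% of the log2 rise of MEIS2 and 32.9% of the much smaller rise of PBX3. For NR2F1 the share was 9.19% and for MEIS1 6.25%.

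**Figure D2:**
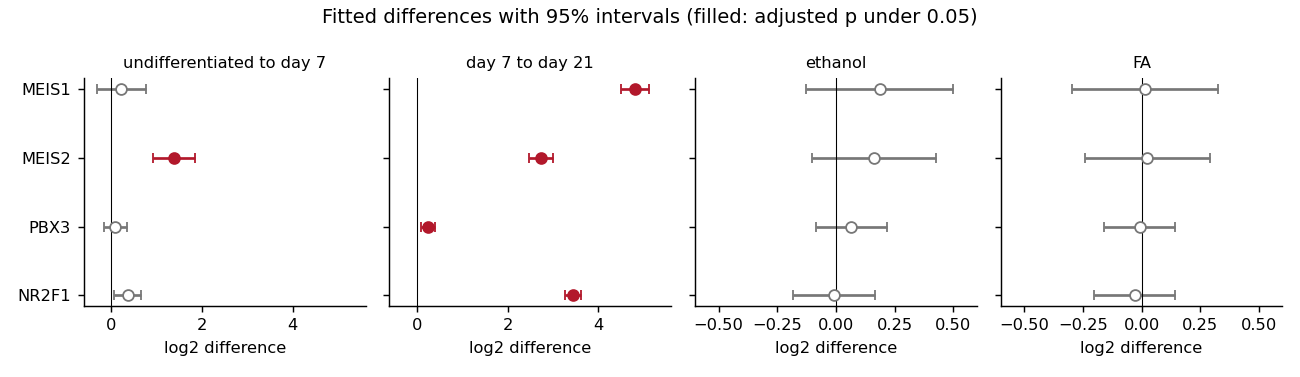
Fitted log2 differences with 95% intervals for the 4 measured genes in 4 comparisons, with filled points where the adjusted p was under 0.05. The day effects of MEIS1, MEIS2 and NR2F1 lie between 2.73 and 4.81, the day 7 panel has MEIS2 alone filled, and every ethanol and FA interval crosses 0 on axes that are narrower.

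Mean levels of markers of several other cell types also differed between the days, and their part in these rises was not tested. The counts of markers below stand beside 26.3% of all genes higher and 22.6% lower. The mean level of 6 neural progenitor markers was 7.87 to 8.03 at day 7 and 8.58 to 8.69 at day 21, with 2 of 6 tested higher, 1 lower and a median difference of 0.12. PAX6, at 4.32 ± 0.11 (SE), carried that mean, since SOX3 rose by 0.45, FABP7 differed by -0.70, and SOX1 (0.15), HES5 (0.086) and NES (-0.16) did not pass. For 5 neuron markers with a cluster the mean was 7.49 to 7.79 and then 8.48 to 8.67, with 3 of 4 tested higher (NCAM1, DCX and SNAP25) and STMN2 lower at -0.62. For 7 mesenchyme markers it was 6.60 to 6.78 and then 7.22 to 7.31, with 2 of 4 tested higher, PDGFRA (2.67) and COL3A1 (0.47), a median of 0.20, and COL1A1 (-0.063) and TWIST1 (-0.14) not passing. For 4 neural crest markers it was 8.53 to 8.78 and then 7.96 to 8.14, with 2 of 3 tested lower, TFAP2A (-2.10) and FOXD3 (-0.22), and SNAI2 at 0.013. PAX6, SNAP25 and PDGFRA passed the filter only through day 21. FABP7 passed it only through the undifferentiated array (8.11). FOXD3 passed it only through that array and the day 7 array with ethanol (7.72 in both). Of 6 endothelial markers, which bear on the venous role of COUP-TF genes, 0 exceeded the median of all values on any array, and their mean stayed between 6.46 and 6.66. Of 6 blood markers, which bear on the blood role of MEIS1, 4 exceeded that median on some array. The blood mean was 7.25 to 7.54 at day 7 and 7.12 to 7.32 at day 21. Of the 4 tested, RUNX1 was lower (-0.25) and 3 did not pass. Once arrays were centred on their medians, FOXD3 (-0.17, adjusted p = 0.083 in limma) and RUNX1 (-0.19, adjusted p = 0.073) no longer passed. SOX1 then did pass, at 0.21 (adjusted p = 0.021).

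None of the 4 members passed for ethanol in the fit over both days, against 0.685% of all genes called (0.563% higher), and 0 of 4 had an unadjusted p under 0.05 in limma. The averaged ethanol effect was 0.19 ± 0.14 (SE, 95% interval -0.13 to 0.50) for MEIS1 and 0.16 ± 0.11 (-0.10 to 0.43) for MEIS2. It was 0.066 ± 0.065 (-0.085 to 0.22) for PBX3 and -0.0085 ± 0.075 (-0.18 to 0.16) for NR2F1. The adjusted p lay between 0.51 for MEIS2 and 0.97 for NR2F1. For the MEIS genes the pairs had opposite signs at the 2 days.

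At day 7 MEIS1 was higher with ethanol by 0.27 without FA and by 0.74 with FA, and at day 21 it was lower by 0.096 and 0.17 in those pairs (values of -0.096 and -0.17). MEIS2 was higher with ethanol at day 7 by 0.35 without FA and 0.53 with FA, and its day 21 pairs differed by -0.17 and -0.056. PBX3 differed by 0.086 and 0.18 at day 7 and by -0.077 and 0.072 at day 21. NR2F1 differed by 0.21 and -0.14 at day 7 and by -0.032 and -0.075 at day 21. Both ethanol arrays of day 7 lay above both arrays without ethanol for MEIS1, MEIS2 and PBX3, as they did in 28.2% of all genes. Higher values in both day 7 pairs with lower values in both day 21 pairs were seen in MEIS1 and MEIS2 and in 4.96% of all genes.

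The difference between the ethanol effects of the days was tested with an ethanol by day term. It was -0.64 ± 0.16 (SE, 95% interval -1.02 to -0.26, unadjusted p = 0.0057) for MEIS1 and -0.55 ± 0.12 (-0.85 to -0.25, unadjusted p = 0.0037) for MEIS2. Neither passed after adjustment in limma (adjusted p = 0.37 and 0.34), where 0.00816% of all genes were called. Without the day 7 array with ethanol both were called (-0.81, adjusted p = 0.013, and -0.67, adjusted p = 0.015), and without the doubly treated day 7 array they were called as well (-0.47, adjusted p = 0.034, and -0.43, adjusted p = 0.030). In those reduced fits 329 and 1112 genes passed in place of 1. Over all fits that left out an array, the adjusted p ran from 0.013 to 1.00 for MEIS1 and from 0.015 to 1.00 for MEIS2, with the sign unchanged. The term was -0.14 ± 0.13 (SE) for PBX3 and -0.090 ± 0.16 for NR2F1, and neither had an unadjusted p under 0.05.

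None of the 4 members passed for FA. The fitted FA effect was 0.015 ± 0.14 (SE, 95% interval -0.30 to 0.33) for MEIS1, 0.025 ± 0.11 (-0.24 to 0.29) for MEIS2, -0.0082 ± 0.065 (-0.16 to 0.14) for PBX3 and -0.029 ± 0.075 (-0.20 to 0.14) for NR2F1. Of these, 0 of 4 had an unadjusted p under 0.05 in limma, and 0% of all genes were called, with 121 at an unadjusted p under 0.05. No member passed for FA by day or ethanol by FA either, where 0% of all genes were called (1496 and 100 genes at an unadjusted p under 0.05 in limma) and 0 of 4 members had an unadjusted p under 0.05. In single pairs the FA difference was at most 0.31 in size, in NR2F1 at day 7 with ethanol (-0.31).

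**Figure D3:**
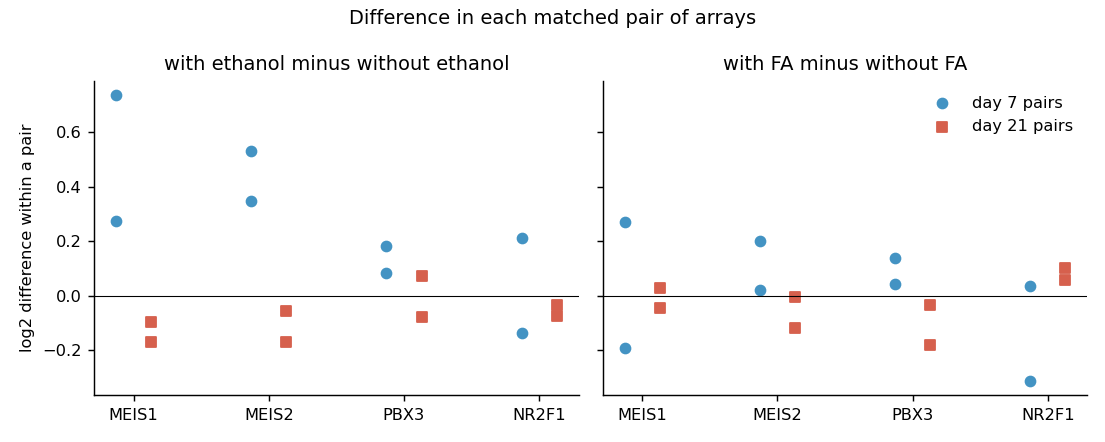
Each point is the log2 difference within a pair of arrays that differ in ethanol (left) or FA (right) alone, with circles for day 7 and squares for day 21. With ethanol the day 7 points of MEIS1 (0.27 and 0.74) and MEIS2 (0.35 and 0.53) lie above 0 and their day 21 points below it, while FA points lie between -0.31 and 0.27.

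Other genes of the same families had smaller fitted differences between the days than MEIS1, MEIS2 and NR2F1, and the contrast itself was not tested. Of 7 other MEIS, PREP and PBX genes 5 were tested, and 3 rose and 0 fell from day 7 to day 21, with a median difference of 0.20 against -0.012 over all genes. Among all genes 26.3% rose and 22.6% fell. PKNOX2 (PREP2), a TALE factor that competes with MEIS for PBX, rose by 0.94 ± 0.08 (SE), from 7.83 to 7.95 at day 7 to 8.66 to 9.02 at day 21. PKNOX1 (PREP1) rose by 0.39 ± 0.05 and MEIS3 by 0.20 ± 0.07, with adjusted p = 6.9e-04 and 0.045. PBX4 differed by -0.026 ± 0.05 and PBXIP1, which codes for a PBX-binding protein that blocks DNA binding, by 0.0074 ± 0.05, and neither passed. MEIS3 also shares clusters with a near copy, which were not used, and PBX2, without a cluster annotated to it alone, was not analysed here.

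Between the days 26.3% of all genes rose and 22.6% fell. Among 8 other NR2 family receptors 5 were tested, and 2 rose and 0 fell, with a median of 0.012. The risers were the retinoid X receptor genes RXRA (0.36 ± 0.06, SE, adjusted p = 0.0017) and RXRB (0.21 ± 0.05, adjusted p = 0.014), which code for partners of retinoic acid receptors. NR2F6, the third COUP-TF gene, differed by -0.083 ± 0.06 and lay between 9.82 and 10.17 on all 9 arrays. NR2C1 and NR2C2, which code for the testicular receptors, differed by -0.21 ± 0.08 and 0.012 ± 0.05 between the days and did not pass. Both were higher at day 7 than in undifferentiated cells (0.52, adjusted p = 0.032, and 0.29, adjusted p = 0.047), calls that were lost with each array centred on its median (adjusted p = 0.062 and 0.11). NR2E1, NR2E3 and RXRG stayed below the filter, with highest levels of 5.85, 7.65 and 7.40.

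The wider TALE class gave changes of both signs, smaller than those of MEIS1, MEIS2 and NR2F1, and the 3 tested cofactors of COUP-TF proteins had negative differences. Of 9 other TALE genes 7 were tested, 2 rose and 2 fell, with a median of 0.058. Since 26.3% of all genes rose and 22.6% fell, nothing about the class is read from that count. IRX3, a neural tube patterning gene, rose by 1.22 ± 0.08 (SE) and IRX1 by 0.28 ± 0.07. TGIF1, which codes for a corepressor of TGF-beta signalling, fell by 0.69 ± 0.09 (a value of -0.69), and IRX6 differed by -0.23 ± 0.06. With each array centred on its median IRX5 passed as well, at 0.20. Of 6 COUP-TF cofactors 3 were tested, with 2 lower, and these were the COUP-TF interacting zinc finger genes BCL11A (-0.87 ± 0.08) and BCL11B (-0.53 ± 0.09), while ZFPM1 (-0.12 ± 0.07) did not pass. ZFPM2 stayed below the filter and was not tested, at 6.06 to 6.30 at day 7 and 6.39 to 7.04 at day 21.

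HOX genes, whose products MEIS and PBX proteins partner, also rose between day 7 and day 21. Of 12 HOX genes of paralogue groups 1 to 4, 8 were tested and 8 rose between the days, with a median of 3.0, where 26.3% of all genes rose. From undifferentiated cells to day 7, 0 of the 8 passed, with a median of 0.12, where 20.6% of all genes were called in either direction. That step rests on 1 undifferentiated array, so a smaller rise there could be missed. The largest day differences were HOXA2 at 5.19 ± 0.10 (SE), HOXB3 at 3.93 ± 0.11, HOXB1 at 3.92 ± 0.11 and HOXB2 at 3.37 ± 0.14. Of 11 hindbrain and midbrain patterning genes 7 were tested, with 1 higher and 1 lower (26.3% and 22.6% of all genes) and a median of -0.082. OTX2, which marks forebrain and midbrain, differed by -1.26 ± 0.18, the ephrin receptor gene EPHA4 by 0.30 ± 0.07, and FGF3 (-0.16) and FGF8 (-0.15) did not pass. EN1, which exceeded the filter level only in day 21 arrays, passed at 0.19 with each array centred on its median. HOXA2 and HOXD3, with highest day 7 levels of 6.88 and 7.24, passed the filter only through day 21, as MEIS1 did, so their entry into the count depended on being high there.

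Retinoic acid genes, whose receptors share binding sites with COUP-TF proteins, gave 6 higher and 1 lower (the retinaldehyde dehydrogenase gene ALDH1A3, -0.55 ± 0.06) of 9 tested among 14 listed, with a median of 2.67. The shares of all genes were 26.3% higher and 22.6% lower. RARB, the retinoic acid receptor beta gene, rose by 4.66 ± 0.07 (SE), the retinoic acid hydroxylase genes CYP26B1 and CYP26A1 by 3.65 ± 0.06 and 3.41 ± 0.07, and the retinal reductase gene DHRS3 by 3.10 ± 0.07. At day 7, DHRS3 (0.83 ± 0.12, adjusted p = 0.0061) and CYP26A1 (0.53 ± 0.13, adjusted p = 0.025) were higher than in undifferentiated cells, ALDH1A3 was lower (-0.52 ± 0.10, adjusted p = 0.012), and 6 of the 9 did not pass. In that step 20.6% of all genes were called in either direction. RARB, CYP26B1 and ALDH1A1, with highest levels before day 21 of 6.88, 6.99 and 6.65, passed the filter only through day 21, so 3 of the 6 that rose entered the test by being high there. ALDH1A3, at 7.60 at most at day 21, passed the filter only through arrays before day 21. RARA and CRABP1 were not analysed here. Among 9 vessel genes linked to COUP-TFII, 7 were tested, with 3 higher and 1 lower (26.3% and 22.6% of all genes) and a median of 0.24. The lymphatic regulator gene PROX1, which also passed the filter only through day 21 (6.46 at most before it), rose by 3.17 ± 0.13, the arterial ligand gene EFNB2 by 1.78 ± 0.06 and the semaphorin co-receptor gene NRP2 by 1.3 ± 0.10, and the arterial gene HEY2 differed by -0.20 ± 0.05. HEY1 (0.24 ± 0.09) missed the threshold at adjusted p = 0.065 and passed with each array centred on its median, at 0.29. Over the 8 lists, 51 of 76 genes were tested. In limma 0 of the 51 passed for ethanol, FA or any interaction. At an unadjusted p under 0.05 there were 9 for ethanol (17.6%, against 17.5% of all genes), 1 for FA (1.96% against 0.987%) and 9 for ethanol by day (17.6% against 7.48%). There were 5 for FA by day (9.8% against 12.2%) and 2 for ethanol by FA (3.92% against 0.816%).

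**Figure D4:**
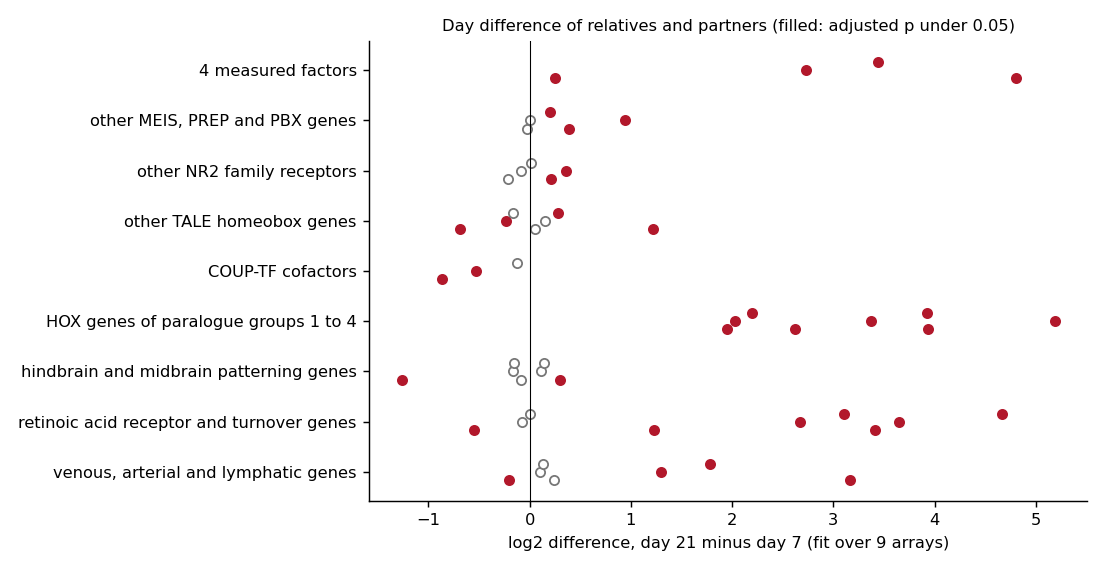
Each point is a gene's fitted log2 difference between day 21 and day 7, by gene list, with filled points where the adjusted p was under 0.05. The other MEIS, PREP, PBX and NR2 genes lie between -0.21 and 0.94, while the 8 HOX genes lie between 1.95 and 5.19 and MEIS1, MEIS2 and NR2F1 between 2.73 and 4.81.

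The profiles most like those of the members were taken over the 9 arrays as the smallest root mean square (RMS) difference between log2 values, each gene centred on its own mean, among 11686 genes. For MEIS1 they were RARB (0.18), the adaptor gene SKAP2 (0.26), HOXA2 (0.27) and PAX6 (0.38), against a median of 2.44 over all candidates. For MEIS2 they were IGFBP5 (0.18), whose product binds insulin-like growth factors, DHRS3 (0.31), HOXB2 (0.34) and the muscle and neural regulator gene MEF2C (0.37), against 1.60. IGFBP5 was 7.39 in undifferentiated cells with a mean of 8.90 at day 7 and 11.75 at day 21. Both genes were higher in the ethanol arrays at day 7. At day 21 IGFBP5 was higher with ethanol (11.90 against 11.61 without FA, 11.99 against 11.50 with FA), whereas MEIS2 was lower. For NR2F1 they were the semaphorin receptor gene PLXNA2 (0.11), the adhesion gene OPCML (0.13), CYP26B1 (0.14) and the WNT carrier gene WLS (0.15), against 1.77.

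PBX3 had a small range, so its nearest genes, TAB3 (0.035), METTL9 (0.037), ETNK1 (0.038) and LYSMD3 (0.038), are set against a median of only 0.23. Among the members themselves the smallest RMS difference was 0.45, between MEIS2 and NR2F1, and that between MEIS1 and MEIS2 was 0.98. These values are descriptions over arrays that share a quantile normalization.

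**Figure D5:**
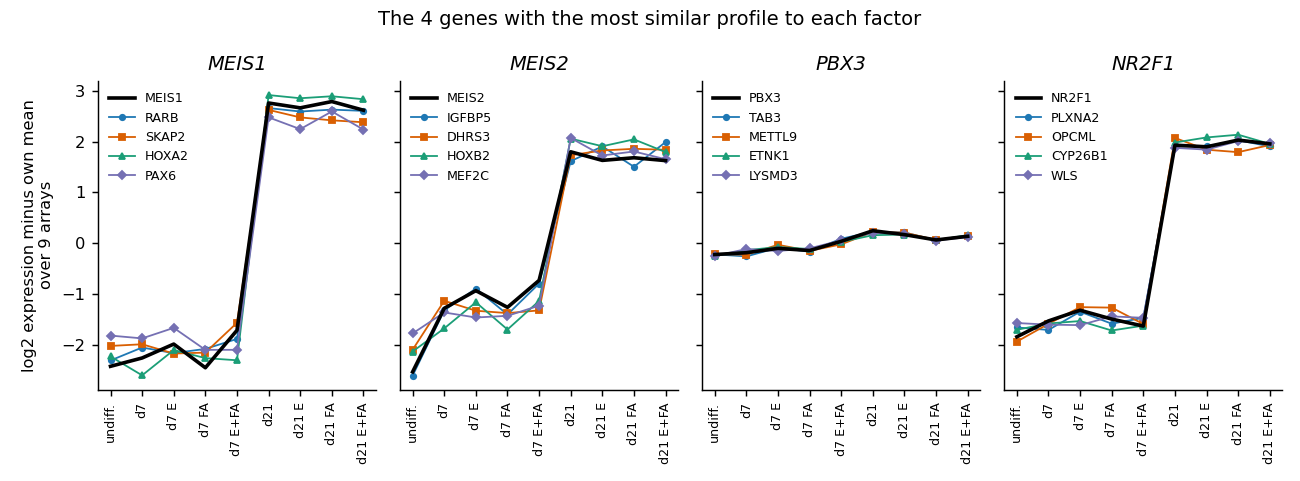
Each panel shows, over the 9 arrays in order (E for ethanol), log2 expression minus the gene's own mean for a member in black and the 4 genes most like it in colour. MEIS2 and IGFBP5 start lowest and rise by day 7, while MEIS1, NR2F1 and their nearest genes change mainly between day 7 and day 21.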

How the data were processed

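Total RNA of 9 NCCIT samples was hybridised to Affymetrix whole-transcript arrays, 1 per condition. The deposited table holds log2 values. Per the submitters' processing notes the authors used RMA and Affymetrix Expression Console 1.3.1, and base 2 was inferred from the values. RMA draws the arrays to a common distribution, so a shift of most transcripts would not be seen, and it compresses dim values. No source used here names the authors' genome build.

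Of 33297 clusters, 19460 had 1 gene symbol, 1754 several and 12083 none in the platform annotation, and 19429 of the first matched RefSeq by Entrez ID. For the 769 genes with several clusters the brightest by mean was used. The filter kept 12254 genes and removed 6163. Limma 3.58.1 in R 4.3.3 fitted the additive model (4 residual degrees of freedom, prior 3.94), in which the residual stands in for replicate error and holds any true interaction. Interaction terms were added in turn. The undifferentiated array was assumed to vary like the others. On simulated data the day fit recovered 98% of 2-fold and 100% of 4-fold changes over 12254 genes, and the undifferentiated to day 7 fit 85% and 98%. The number of arrays limits precision.

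The members and gene lists were chosen with earlier results of these data known. Genes named are the members, all of both family lists, up to 4 of each other list by size of day effect, those below the filter or not analysed, and 4 of most similar profile for each member; IRX5, EN1, HEY2, ALDH1A1, ALDH1A3, HOXD3 and the single cell type markers were named after their values were seen. Alternatives were other filters, the mean of clusters, centred arrays, other prior settings, fewer terms and each array left out. Motif windows are the 250 bases before RefSeq starts (GRCh38.p14), leaving out the 50 after.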

Additional observations from a re-analysis of the deposited data

Results flagged for a closer look

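The ethanol effect had opposite signs at the days in every pair for MEIS1 and MEIS2. For MEIS1 the mean of the pairs was 0.50 at day 7 and -0.13 at day 21, a difference of -0.64 (interaction adjusted p = 0.37 in limma). For MEIS2 the means were 0.44 and -0.11, a difference of -0.55 (adjusted p = 0.34). The FA effect also had opposite signs in every pair for MEIS2, with means of 0.11 and -0.061 and a difference of -0.17 (adjusted p = 0.72), and for PBX3, with means of 0.091 and -0.11 and a difference of -0.20 (adjusted p = 0.44). Some of these FA pairs differed by little, as in MEIS2 without ethanol at day 7 (0.020) and with ethanol at day 21 (-0.0042). The share of all genes with this FA pattern was not counted, so nothing is read from it. None of the 4 differences passed the threshold with all arrays.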

How the results depend on the processing

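Of 204 fitted member effects recomputed under 9 settings that kept all arrays, 202 kept their direction and side of the threshold, the exceptions being PBX3 at day 21 as given above. Of 280 recomputed without 1 array, 239 did. Without 1 array, the number of members called ran from 1 to 2 for undifferentiated cells to day 7, from 3 to 4 for both comparisons with day 21, and from 0 to 2 for ethanol by day. Small effects changed sign without some arrays, with ranges of -0.090 to 0.051 for NR2F1 with ethanol, and with FA of -0.13 to 0.15 (MEIS1), -0.088 to 0.13 (MEIS2), -0.073 to 0.053 (NR2F1) and -0.062 to 0.052 (PBX3). Interaction ranges that crossed 0 were -0.28 to 0.098 for NR2F1 (ethanol by day), -0.42 to 0.32 for MEIS1 and -0.42 to 0.073 for MEIS2 (FA by day), and -0.12 to 0.51 for MEIS1 and -0.11 to 0.40 for MEIS2 (ethanol by FA). The cause was not tested. Over all genes, calls for ethanol numbered 84, but 54 without a filter, 155 with a prior that follows the mean level, 0 with the ethanol term alone and 0 to 212 without 1 array, and calls from undifferentiated cells to day 7 ran from 540 to 3833 without 1 array in place of 2520. The ethanol by day count of 1 was 0 without a filter. The labels give no replicate numbers, so no fit with a block for them was made, and pairs are of arrays that share a treatment.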

Other observations

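PBX3-DT, the transcript divergent from PBX3, has a cluster of its own and stayed dim, between 6.11 and 6.65 on the 9 arrays, below the filter.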
